A study of Mus musculus with 6 samples.

Results

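The genes described here are the mouse zinc-finger genes whose symbol is Zfp followed by a 3-digit number of 600 or more. They were taken from the count table by symbol, and only rows that the GENCODE annotation calls protein-coding were kept, which gave 165 of 32061 genes. The rule itself uses no measured level, but it was chosen with earlier results of these data known. RNA was sequenced from 6 samples of biliary epithelium, the lining of the bile ducts, from mouse liver. In 3 samples, called cilia depleted here (KO in the column names), the cells had received 4OHT, short for 4-hydroxytamoxifen, an agent that activates Cre recombinases fused to a modified oestrogen receptor and so lets them delete a floxed gene. In the other 3, called cilia competent (WT in the column names), the cells had not received it. All 6 samples share their origin in hand-picked bile ducts that were grown as organoids in Matrigel and then plated on collagen. Loss of the primary cilium, the sensory projection of the cell surface, and exposure to 4OHT fall on the same 3 samples and cannot be told apart. Mouse strain, age, the Cre driver and whether replicates came from separate animals are not given in the sources used here, so a p-value here measures the spread between samples alone, and that spread may be technical.

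Most Zfp genes encode proteins with rows of C2H2 zinc fingers, short loops held by a zinc ion that read DNA sequence. In many of them the fingers follow a KRAB domain, which binds the co-repressor TRIM28; TRIM28 in turn brings the histone methyltransferase SETDB1 and HP1 proteins, and the DNA becomes packed with trimethylated H3K9. KRAB zinc-finger genes lie in clusters of recent copies, differ widely between mammals and are best known for silencing retroviruses and other transposable elements. Members without a KRAB domain include co-repressors and transcription factors of development that share only the symbol.

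The promoters of members that rose and of one that fell are shown first, because some members share short promoter sequences as well as coding sequence. Each window runs from 250 bases before to 50 bases after a transcription start, on the strand of the gene, from RefSeq on GRCm38.p6, and 142 of the 165 members were found there with 171 windows in all. Capitals mark CCAATCA and TGTCACTCA. Zfp941, Zfp964, Zfp959 and Zfp869 are among the members with the largest rises, and Zfp968 represents the chromosome 2 copies, whose RNA was lower in depleted cells. The RefSeq start of Zfp869 lies upstream of the gene as GENCODE draws it.
Zfp941, chr7:140822129-140822428, minus strand: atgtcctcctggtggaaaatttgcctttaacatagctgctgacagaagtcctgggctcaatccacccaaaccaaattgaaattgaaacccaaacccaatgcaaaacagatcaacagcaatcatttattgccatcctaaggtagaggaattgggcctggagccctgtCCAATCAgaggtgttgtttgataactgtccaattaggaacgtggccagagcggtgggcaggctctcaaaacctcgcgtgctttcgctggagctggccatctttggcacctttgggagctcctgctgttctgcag
Zfp964, chr8:69654306-69654605, plus strand: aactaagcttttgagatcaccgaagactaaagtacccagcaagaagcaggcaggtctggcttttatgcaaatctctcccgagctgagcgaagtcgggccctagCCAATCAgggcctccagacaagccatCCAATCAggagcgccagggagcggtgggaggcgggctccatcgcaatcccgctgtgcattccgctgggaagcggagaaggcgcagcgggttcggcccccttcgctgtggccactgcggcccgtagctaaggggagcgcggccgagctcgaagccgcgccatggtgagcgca
Zfp959, chr17:55891843-55892142, plus strand: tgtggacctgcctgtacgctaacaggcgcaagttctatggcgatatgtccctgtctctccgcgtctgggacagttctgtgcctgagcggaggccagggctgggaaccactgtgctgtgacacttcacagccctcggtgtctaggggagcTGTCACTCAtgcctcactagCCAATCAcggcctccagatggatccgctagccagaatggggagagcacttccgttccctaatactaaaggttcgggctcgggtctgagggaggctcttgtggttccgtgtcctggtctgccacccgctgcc
Zfp869, chr8:69716853-69717152, minus strand: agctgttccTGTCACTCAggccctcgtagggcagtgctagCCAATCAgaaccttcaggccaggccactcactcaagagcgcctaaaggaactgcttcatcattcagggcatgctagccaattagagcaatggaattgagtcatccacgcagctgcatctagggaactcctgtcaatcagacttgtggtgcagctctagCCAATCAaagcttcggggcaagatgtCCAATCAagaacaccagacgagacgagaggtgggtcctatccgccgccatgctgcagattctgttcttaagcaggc
Zfp968, chr2:175372186-175372485, plus strand: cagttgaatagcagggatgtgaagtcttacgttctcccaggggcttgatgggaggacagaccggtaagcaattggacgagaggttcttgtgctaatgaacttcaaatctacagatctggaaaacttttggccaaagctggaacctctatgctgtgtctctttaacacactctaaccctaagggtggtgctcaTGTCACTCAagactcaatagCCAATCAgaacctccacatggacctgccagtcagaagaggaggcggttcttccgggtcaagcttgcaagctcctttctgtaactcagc

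Zfp genes numbered 600 and above were mostly more abundant in cilia depleted cells. Of the 165 members, 142 passed the filter on low counts, and 116 of these (81.7%) were higher in depleted cells and 13 (9.15%) were lower, by edgeR's quasi-likelihood test at a Benjamini-Hochberg adjusted p below 0.05. The background was wide, since 69.2% of all 13839 genes tested were called, 34.9% as higher and 34.3% as lower. Among protein-coding genes that are not members, 71.6% were called, 35.9% as higher and 35.7% as lower. The median log2 change of tested members was 0.61 (quartiles 0.36 to 0.98), a 1.52-fold difference, whereas the median over all genes tested was -0.01. In 131 members (92.3%) the 3 depleted samples did not overlap the 3 competent samples, against 72.5% of all genes. In the plot of ranked changes the rise is spread over the group, and Zfp941 stands apart at the top.

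**Figure D1:**
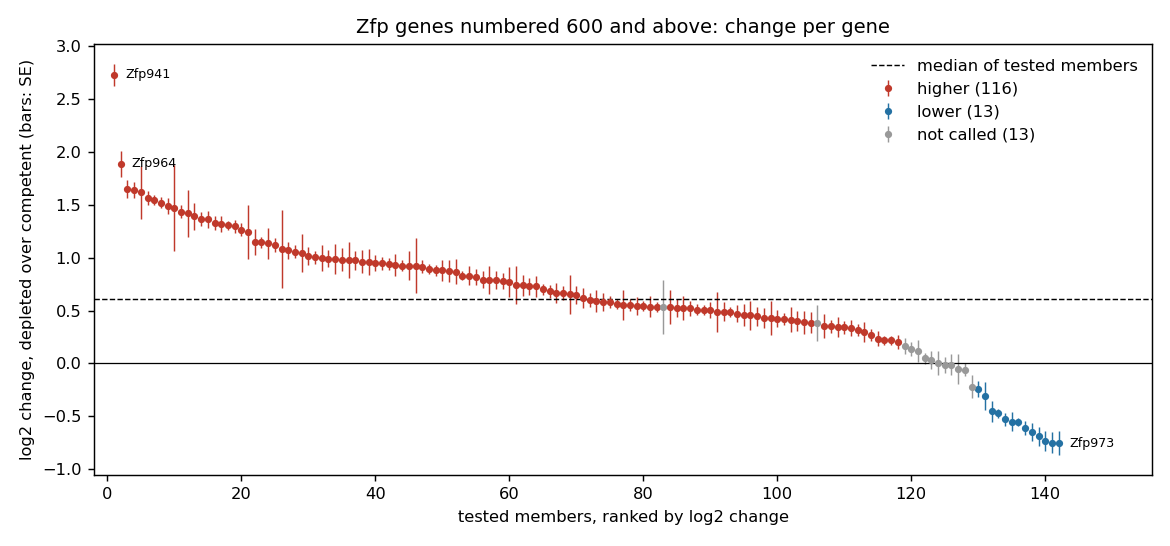
Log2 change, depleted over competent, of each of the 142 tested members, ranked, with bars for the SE; colour marks the edgeR call and the dashed line the median. 116 members were called higher, 13 lower and 13 were not called, and the changes run from 2.73 for Zfp941 to -0.75 for Zfp973.

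The rise was moderate in most members. Of the 116 called higher, 43 were no more than 1.5-fold higher and 73 were over 1.5-fold higher, where 16.9% of all genes tested were called and over 1.5-fold higher. Over 2-fold, 31 members were higher and 0 lower, against 7.38% and 2.49% of all genes tested, and edgeR called 6 members over 1.5-fold lower, against 11.6%. The share of all counts that fell on members was 0.385%, 0.386% and 0.381% in the depleted samples and 0.293%, 0.291% and 0.294% in the competent samples. These shares did not overlap. In bulk RNA, fewer cells of a type and less RNA per cell cannot be told apart.

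These are genes of low to moderate abundance. Per kb of the longest transcript, the median level of tested members was 4.43 CPM in depleted cells and 2.94 CPM in competent cells. The range was 0.115 to 58.6 CPM per kb in depleted cells and 0.0418 to 56.0 CPM per kb in competent cells. The share called higher was 80.6%, 80%, 80% and 86.1% when members were divided into 4 classes of equal size, in order of mean CPM from low to high. Protein-coding genes outside the group with a mean CPM in the members' middle range, 6.87 to 26.8, were higher in 38.2% and lower in 36.3% of cases, with a median log2 change of 0.01.

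The other 23 members were not tested, and 3 of them had no count in any sample. The best covered were Zfp972 with 57, Zfp819 with 25 and Zfp811 with 10 counts over the 6 samples. Zfp819 is a KRAB protein described as a repressor of endogenous retroviruses in mouse pluripotent cells. Of the untested members, 9 lie on chromosome 4, which holds 15 members. Zfp773 and Zfp977 passed the filter only through the depleted samples and 0 members only through the competent samples.

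Total counts were 26293486 to 36998935 per depleted sample and 32199606 to 36093068 per competent sample, and 3 counts corresponded to 0.0796 to 0.119 CPM. Biliary markers were abundant in both groups, with 10 of 10 tested and a summed level of 13257 to 14291 CPM in depleted and 15438 to 16277 CPM in competent samples. Hepatocyte markers (3 of 6 tested) summed to 16.3 to 18.1 CPM in depleted and 18.9 to 25.9 CPM in competent samples, with Cyp3a11 at 0, and macrophage and leukocyte markers (2 of 6 tested) summed to 45.4 to 51.3 and 50.6 to 50.8 CPM in depleted and competent samples, most of it Csf1r. Stellate and fibroblast markers (1 of 6 tested, Col3a1 and Col1a2 at 0) summed to 2.75 to 3.49 CPM in depleted and 1.27 to 1.56 CPM in competent samples, and endothelial markers (0 of 4 tested) to at most 0.436 CPM. The part of these other cell types in the members' changes was not tested. The gene deleted is not named in the labels. The level of Wdr35, an intraflagellar transport gene chosen from knowledge of the study, was 739, 914 and 925 counts in depleted and 1211, 1148 and 1200 counts in competent samples (log2 change -0.25, SE 0.062, adjusted p = 0.00245), and a count over a whole gene does not show a deleted exon.

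Because changes in these libraries follow transcript length, members were set against protein-coding genes of similar length. All tested protein-coding genes, members included, were divided by their longest transcript into 10 classes, and the median of each class was taken without members. This median log2 change runs from -0.45 among the shortest (204 to 1462 nt) to 0.28 among the longest (6860 to 123179 nt). Of the 142 tested members, 125 lay above the median of their class and 17 below, and the median difference from it was 0.59. With the length trend taken out of each library, edgeR called 108 members higher and 13 lower, against 33.9% and 35% of all genes, and the median log2 change of members was 0.57. Of the calls, 118 were made in the same direction both ways, 11 were made without and 3 with the removal of the trend alone, and 0 changed direction.

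**Figure D2:**
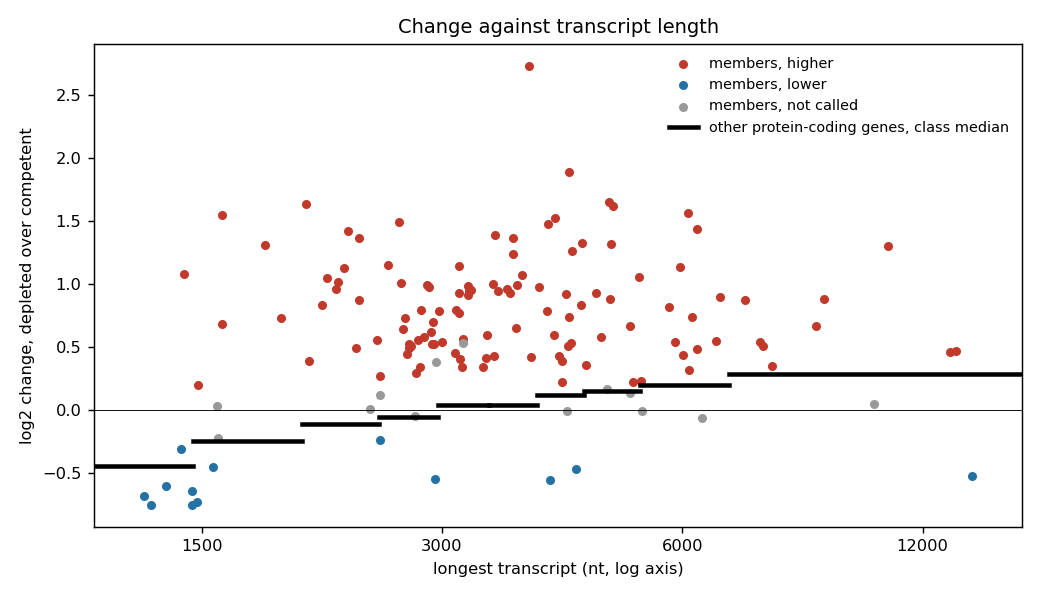
Log2 change, depleted over competent, of tested members against the length of the longest transcript in nt (log axis); black lines are the medians of other protein-coding genes in 10 length classes. Members from 2005 nt upward lie mostly above the line of their class, and 6 of the 7 members in the shortest class were called lower.

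Members of 2005 to 2501 nt and of 3433 to 3944 nt stood furthest above their class by median. In the class of 3433 to 3944 nt, 13 of 13 members were higher with a median log2 change of 0.99, where 38.2% of the other genes were higher and their median was 0.03. Of the members of 2005 to 2501 nt, 12 of 13 were higher with a median of 0.96, while 26.3% of the other genes were higher and 43.6% lower. The longest class held 11 members, 9 of them higher with a median of 0.51, where 55.6% of the other genes were higher. The shortest class differed, since 1 of its 7 members was higher and 6 were lower (median -0.65), and 62.5% of the other genes of that length were lower. The 1 higher member is Zfp977, which had passed the filter only through the depleted samples. The 6 lower members are Zfp637 and 5 members of a run on chromosome 2 (Zfp965, Zfp967, Zfp969, Zfp971 and Zfp973).

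Members were mostly higher both with and without a KRAB domain. A KRAB A-box pattern was found in the coding sequence of 112 members, and 53 had none. Of 96 tested members with the pattern, 78 were higher, 9 lower and 9 not called, with a median log2 change of 0.66. Of the 46 without, 38 were higher, 4 lower and 4 not called, with a median of 0.55. Their median level was 10.0 CPM with the pattern and 28.8 CPM without it. By finger number, 41 of 45 members with 13 to 40 fingers were higher (median 0.82) and 18 of 20 with 0 to 5 fingers (median 0.81). In between, 27 of 37 with 6 to 9 fingers and 30 of 40 with 10 to 12 fingers were higher, with medians of 0.51 and 0.53. Over all genes tested, 34.9% were higher. All 5 lower members with 10 to 12 fingers (Zfp966, Zfp967, Zfp968, Zfp969 and Zfp971) lie in the run on chromosome 2. Zfp965 and Zfp973 of that run are among the 5 lower members with 6 to 9 fingers. No difference between these groups was tested.

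Zfp941 (ENSMUSG00000060314; GRCm38 chromosome 7, 140807449 to 140822178, minus strand) rose the most. This gene encodes a KRAB protein with 9 fingers. Its level was 16.2, 15.6 and 14.1 CPM in the depleted samples, against 2.17, 2.26 and 2.44 CPM in the competent samples. The groups lie far apart: the means are 15.3 ± 1.05 and 2.29 ± 0.138 CPM in depleted and competent cells (SD, n = 3 each), the log2 change is 2.73 (SE 0.105, adjusted p = 9.89e-11) and the difference 6.64-fold.

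Zfp964 (chromosome 8, 69654479 to 69666982, plus strand), also a KRAB gene, was next, with 7.72, 8.35 and 8.64 CPM in depleted and 2.11, 2.09 and 2.47 CPM in competent samples. The groups do not overlap, and the log2 change is 1.89 (SE 0.121, adjusted p = 1.32e-08). It lies in a run of 6 KRAB genes on chromosome 8 (69209038 to 69791178), all of them higher, with a median log2 change of 1.27. Zfp869, from the same run, had 91.7, 94.1 and 93.6 CPM in depleted and 33.1, 32.6 and 30.2 CPM in competent samples. That is 2.92-fold (log2 change 1.54, SE 0.049, adjusted p = 1.36e-11), and its level of 58.6 CPM per kb in depleted cells was the highest of all members, next to 58 CPM per kb for Zfp703.

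The remaining large rises came from several chromosomes. Zfp612, a KRAB gene on chromosome 8, had 23.5, 20.1 and 23.2 CPM in depleted and 7.52, 6.62 and 7.12 CPM in competent samples (log2 change 1.65, SE 0.086, adjusted p = 1.75e-09). Zfp959, on chromosome 17, had 19.2, 20.1 and 20.2 CPM in depleted and 6.81, 6.17 and 6.16 CPM in competent samples (log2 change 1.64, SE 0.077, adjusted p = 6.96e-10). Neither pair of groups overlaps, and 21.3% of the 50-base words in the longest Zfp959 transcript also occur in other genes, mostly Zfp119b. Zfp655 was among the most abundant of them, with 140, 141 and 143 CPM in depleted and 47.1, 52.8 and 47.7 CPM in competent samples (log2 change 1.52, SE 0.049, adjusted p = 1.71e-11). Zfp948, a KRAB gene of the chromosome 17 cluster, had 53.1, 60.2 and 57.4 CPM in depleted and 17.6, 21.8 and 21.3 CPM in competent samples (log2 change 1.49, SE 0.075, adjusted p = 1.28e-09).

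The other rises in the top 10 include weakly expressed genes with wider errors. Zfp661, a KRAB protein known in mouse neurons for limiting CTCF at the protocadherin cluster, had 2.06, 2.31 and 3.31 CPM in depleted and 1.12, 0.651 and 0.77 CPM in competent samples. Its log2 change of 1.62 has an SE of 0.251 (adjusted p = 6.33e-05), and the groups do not overlap. Zfp773 had 10, 16 and 18 counts in depleted and 9, 4 and 5 counts in competent samples. On so few counts its log2 change of 1.47 has an SE of 0.409 (adjusted p = 0.00573), and it had passed the filter only through the depleted samples.

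**Figure D3:**
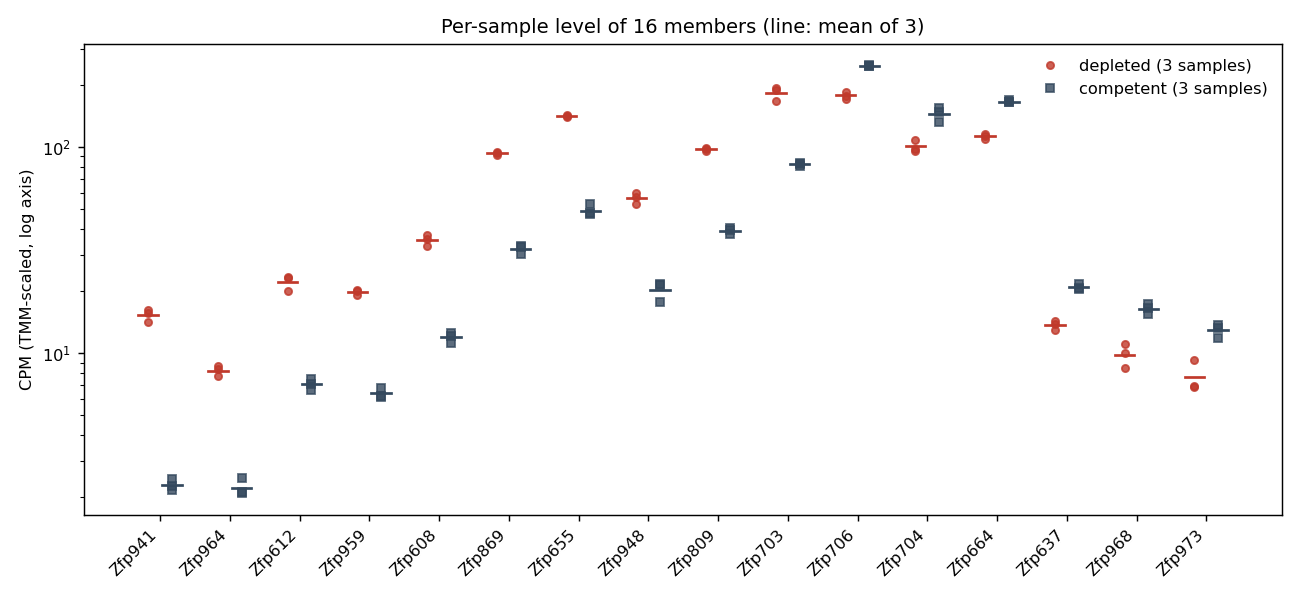
Level in CPM, TMM-scaled and on a log axis, of 16 members in each of the 3 depleted (circles, left) and 3 competent samples (squares, right), with lines for the means. The groups do not overlap for any of the 16; the first 10 genes, Zfp941 to Zfp703, are higher in depleted cells and the last 6, Zfp706 to Zfp973, are lower.

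Among members with a described role in silencing retroelements, the largest rise was in Zfp809. It encodes a KRAB protein that binds the primer binding site of murine leukaemia virus and silences it in mouse embryonic stem cells. Zfp809 (ENSMUSG00000057982; chromosome 9, 22225714 to 22243354, plus strand) had 95.6, 97.6 and 98.6 CPM in depleted and 39.7, 40.6 and 37.9 CPM in competent samples. The groups are well separated, with means of 97.3 ± 1.53 and 39.4 ± 1.38 CPM in depleted and competent cells (SD, n = 3 each), a log2 change of 1.31 (SE 0.045, adjusted p = 3.32e-11) and a difference of 2.47-fold. Zfp638, an RNA- and DNA-binding protein whose human counterpart silences unintegrated retroviral DNA with the HUSH complex, had 89.1, 97 and 94.4 CPM in depleted and 47.6, 54 and 51 CPM in competent samples. It was 1.84-fold higher (log2 change 0.88, SE 0.054, adjusted p = 8.52e-09) with no overlap. Zfp932, which silences endogenous retroviruses in mouse embryonic stem cells, was on the other side, with 10.8, 10.7 and 11.7 CPM in depleted and 13.1, 12.6 and 13.5 CPM in competent samples. Its log2 change of -0.24 (SE 0.076, adjusted p = 0.0133) becomes -0.21 with an adjusted p of 0.0543 without the second depleted sample. Of its 50-base words, 45.2% are shared with other genes, mostly its neighbour Gm15446, so reads of the copies can be split between them.

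Other KRAB genes on the list of described members varied. Zfp667 rose (log2 change 1.24, SE 0.255, adjusted p = 0.000687), as did Zfp689 (0.96, SE 0.107, adjusted p = 2.72e-06). Zfp808 also rose (1.15, SE 0.124, adjusted p = 2.11e-06), whereas Zfp934, which shares 41.6% of its 50-base words with other genes, mostly Zfp808, had 5.22 ± 0.507 CPM in depleted and 5.22 ± 0.168 CPM in competent cells. The Zfp934 groups overlap (log2 change 0.01, adjusted p = 0.962), and the sign of its change turns with upper-quartile scaling. Zfp992, on chromosome 4, rose by little (log2 change 0.36, SE 0.111, adjusted p = 0.0113). It shares 43.7% of its words with other genes, mostly Zfp991. Zfp992 lost its call without the second depleted sample (0.26, adjusted p = 0.0727) and when the length trend was removed (0.22, adjusted p = 0.0864).

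Zfp608 and Zfp609 encode related large proteins without a KRAB domain, and Zfp609 works with cohesin-loading and Integrator factors in mouse neural progenitors. Zfp608, on chromosome 18, had 35.7, 37.3 and 33.2 CPM in depleted and 12.1, 11.1 and 12.6 CPM in competent samples. It was 2.96-fold higher (log2 change 1.56, SE 0.068, adjusted p = 3.33e-10) with no overlap. Zfp609 had 130, 120 and 110 CPM in depleted and 87.1, 98 and 97.3 CPM in competent samples. These groups do not overlap either, but the log2 change was 0.35 (SE 0.062, adjusted p = 0.0002), which removal of the length trend brought to 0.09 (adjusted p = 0.106).

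The 5 members of highest mean CPM moved in both directions. Zfp703 and Zfp740 were higher in depleted cells, whereas Zfp706, Zfp664 and Zfp704 were lower. Zfp703, a NET-family co-repressor known from mammary luminal cells, had 193, 166 and 189 CPM in depleted and 83.1, 81.1 and 83.6 CPM in competent samples. The groups do not overlap, at 183 ± 14.2 and 82.6 ± 1.35 CPM in depleted and competent cells (SD, n = 3 each), which is 2.21-fold (log2 change 1.14, SE 0.054, adjusted p = 6.97e-10). Zfp706, a small protein that represses Klf4 in mouse embryonic stem cells, had 171, 177 and 186 CPM in depleted and 247, 249 and 246 CPM in competent samples. It was 1.39-fold lower (log2 change -0.47, SE 0.043, adjusted p = 3.98e-07) with no overlap.

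Of 14 tested members on the described list without a KRAB pattern, 10 were higher, 2 lower (Zfp704 and Zfp706) and 2 not called, against 34.9% higher and 34.3% lower over all genes. With the length trend removed 8 were higher and 3 lower. Zfp750, a regulator of epidermal differentiation, had 14, 12.1 and 15.6 CPM in depleted and 7.22, 6.25 and 7.67 CPM in competent samples. With no overlap, its log2 change was 0.98 (SE 0.11, adjusted p = 2.88e-06). Zfp711, an X-linked protein that acts with the demethylase PHF8 in human cells, rose by 0.74 (SE 0.183, adjusted p = 0.00264). Zfp692 and Zfp830, the second needed by the inner cell mass of the mouse embryo, rose by 0.73 (SE 0.080, adjusted p = 2.44e-06) and 0.68 (SE 0.060, adjusted p = 2.86e-07) on the log2 scale. Zfp644, a partner of the H3K9 methyltransferases G9a and GLP, rose by 0.48 (SE 0.045, adjusted p = 4.96e-07), and by 0.26 after removal of the length trend.

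In Zfp687, Zfp740, Zfp697 and Zfp652, none of which has a KRAB pattern, changes were small. Zfp687 had a log2 change of 0.22 (SE 0.043, adjusted p = 0.000454), which removal of the length trend brought to 0.04 (adjusted p = 0.389). Zfp740, one of the 5 members with the highest mean CPM, had 136, 131 and 124 CPM in depleted and 114, 114 and 108 CPM in competent samples (log2 change 0.22, SE 0.046, adjusted p = 0.000792). Its change was 0.10 after removal of the length trend (adjusted p = 0.0338), and neither gene's groups overlap. Zfp697 did not pass (log2 change 0.13, adjusted p = 0.0857), and its sign turns when the trend is removed. Zfp652, a partner of CBFA2T3 in human cells, did not pass either, with a log2 change of 0.05 (adjusted p = 0.43). For Zfp652, whose longest transcript falls in the longest class, upper-quartile scaling gave -0.0034 and removal of the length trend gave -0.26 (adjusted p = 0.000116).

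Among members that fell, 4 besides those on chromosome 2 were among the 10 largest falls: Zfp706 and the following 3. Zfp664 had 110, 114 and 116 CPM in depleted and 165, 166 and 168 CPM in competent samples. Zfp704 had 98.2, 108 and 95.6 CPM in depleted and 133, 148 and 155 CPM in competent samples. Zfp637 had 13.9, 13 and 14.3 CPM in depleted and 21.7, 20.7 and 20.4 CPM in competent samples. No pair of groups overlaps, and none of these genes has a KRAB pattern. The log2 changes were -0.55 for Zfp664 (SE 0.040, adjusted p = 4.38e-08), -0.53 for Zfp704 (SE 0.061, adjusted p = 4.12e-06) and -0.61 for Zfp637 (SE 0.066, adjusted p = 2.15e-06). Removal of the length trend brought Zfp704 to -0.87 and Zfp637 to -0.30, and both still passed. Of the Zfp704 exon length, 16.6% is also covered by an antisense gene, and how the counting treated strand is not given in the sources used here.

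Members lie in groups along the chromosomes, and nearly all such groups held no member that fell. With neighbours no more than 1000000 bases apart, 16 runs of at least 3 members hold 104 of the 165. In 11 of the 16 runs every tested member was higher, and in 15 no member was lower. The 88 tested members in runs comprise 75 that were higher and 7 that were lower, and all 7 sit in the run on chromosome 2. Of all tested members, in runs or not, 81.7% were higher and 9.15% lower, against 34.9% and 34.3% of all genes tested. A difference between members in runs and the others was not tested. In the plot of runs that one is set apart from the others.

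**Figure D4:**
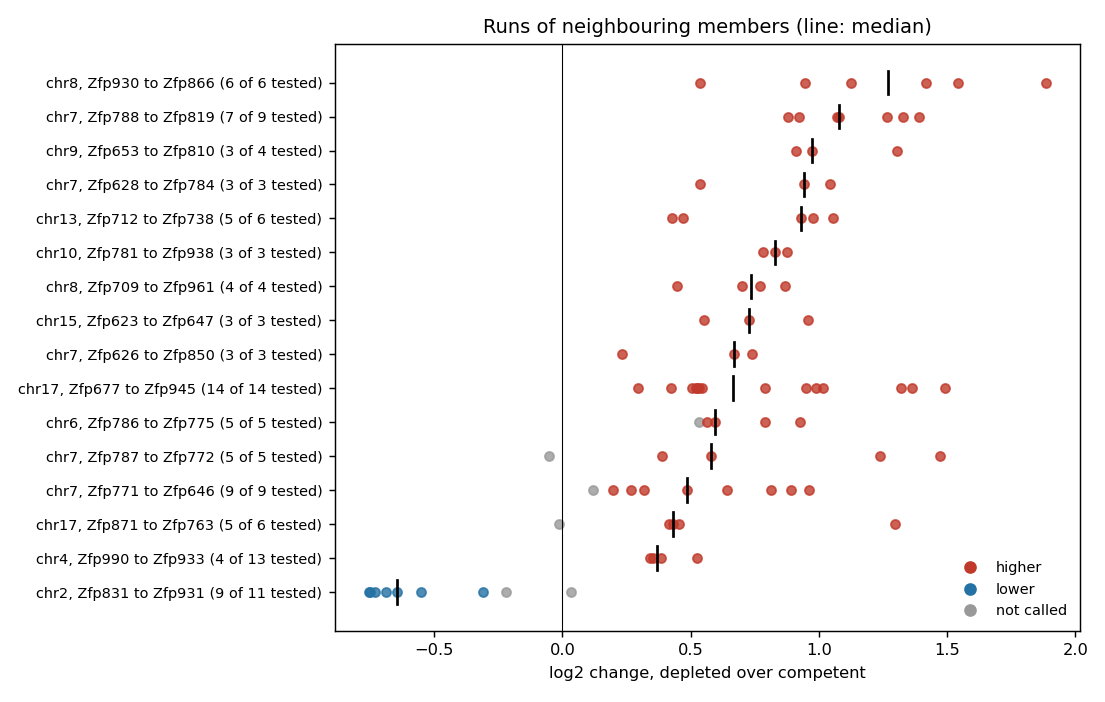
Log2 change, depleted over competent, of the tested members in each of 16 runs of neighbouring members, with a black line at the run's median and colour for the edgeR call; runs are ordered by median. Every run but that on chromosome 2, with a median of -0.65, has a median above 0, up to 1.27 on chromosome 8.

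The longest run with all members tested spans 14 KRAB genes from Zfp677 to Zfp945 on chromosome 17 (21383748 to 22867134). All 14 were higher, with log2 changes of 0.30 to 1.49 and a median of 0.67. Of 7 other tested genes within it, 7 were higher and 0 lower. On chromosome 7 (41633203 to 43618285) a run of 9 KRAB genes had 7 tested, all higher, with changes of 0.88 to 1.39 and a median of 1.08. One of the 7, Zfp977, had passed the filter only through the depleted samples, and the other 6 had a median of 1.17. Its 8 other tested genes had 3 higher and 3 lower, with a median of -0.12. Another run, from Zfp771 to Zfp646 on chromosome 7 (127244274 to 127885996), had 8 of 9 higher and 0 lower with a median of 0.49. On chromosome 4 (145510759 to 147848366) 9 of 13 members were not tested, and the other 4 were all higher, with a median of 0.37.

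The run on chromosome 2 (174643534 to 178078476), from Zfp831 to Zfp931, showed the opposite direction. Of its 11 members 9 were tested, and 7 were lower, 0 higher and 2 not called, with a median log2 change of -0.65. Zfp968 (chromosome 2, 175372436 to 175384201, plus strand) had 8.44, 11 and 10.1 CPM in depleted and 17.3, 16.6 and 15.5 CPM in competent samples. The groups do not overlap, and the level was 1.66-fold lower (log2 change -0.73, SE 0.094, adjusted p = 1.05e-05). Zfp973 had 6.97, 9.23 and 6.82 CPM in depleted and 13.3, 11.9 and 13.7 CPM in competent samples, with no overlap and a log2 change of -0.75 (SE 0.114, adjusted p = 5e-05). Zfp965, Zfp966, Zfp967 and Zfp969 fell in the same way, with log2 changes of -0.69, -0.55, -0.65 and -0.75. After removal of the length trend all 6 still passed, at -0.43 for Zfp973, -0.45 for Zfp968, -0.36 for Zfp965, -0.56 for Zfp966, -0.36 for Zfp967 and -0.47 for Zfp969. Zfp971 was called lower at an adjusted p of 0.0499 though its groups overlap. Its call was lost with RLE scaling (0.0512), DESeq2 (0.065), limma-voom (0.0567), a minimum of 1 CPM (0.0525), the replicate block (0.0601) and removal of the length trend (log2 change -0.01, adjusted p = 0.93), so the counts of members that fell include 1 on the threshold. Zfp970 and Zfp931 were not called (adjusted p = 0.756 and 0.0885).

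These chromosome 2 genes are near-identical copies, so their separate values are uncertain. Of the 50-base words of the longest transcript, 100% occur in other genes for Zfp965, Zfp967, Zfp968 and Zfp969, 89.6% for Zfp966 and 88.7% for Zfp973. Reads that match several copies may have been dropped or placed in one of them. The 9 tested members include several with short annotated transcripts (median 1458 nt), and set against their length classes 3 lay above and 6 below, with a median difference of -0.24. Other tested genes within the run comprise 2 that were higher and 13 that were lower of 27, with a median log2 change of -0.23. Over all chromosomes, members with at least 40% of their words shared had 9 higher, 8 lower and 2 not called of 19, with a median of 0.03. The 8 lower are the 7 of this run and Zfp932, and the 2 not called are Zfp970 of this run and Zfp934. That group is therefore weighted by this 1 run. Members under 40% had 107 higher, 5 lower and 11 not called of 123, with a median of 0.67. Zfp784 overlaps its neighbour Zfp865 on the opposite strand over 94.8% of its exon length, and without the strand setting the rise of the pair cannot be assigned to one of them.

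The promoters of the chromosome 2 copies are also alike. Among 7 of them whose windows were compared in pairs, 97% to 100% of the 260 to 300 aligned bases matched. Within this set 5 genes were 1.47-fold to 1.69-fold lower. Zfp971 was 1.24-fold lower with groups that overlap, and Zfp970 was not called. The Zfp968 window printed above carries TGTCACTCA 11 bases ahead of CCAATCA, and the Zfp959 window has the same pair at the same spacing. In the Zfp869 window, 22 bases lie between TGTCACTCA and the next CCAATCA. Both sequences were chosen after the windows had been looked at, and matches were counted on both strands. CCAATCA, which contains the CCAAT box read by NF-Y, occurred in 52 of 171 member windows (30.4%), against 2568 of all 32851 windows (7.82%). TGTCACTCA occurred in 23 member windows (13.5%) and 243 of all windows (0.740%). A longer form, CCAATCA followed after 3 bases by CCTNCA, occurred in 15 member windows (8.77%) and in 50 of all windows (0.152%), so members supply 30% of the windows that hold it.

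Members that hold these sequences were found on both sides. The 46 members with CCAATCA comprise 30 that were higher, 8 lower, 3 not called and 5 not tested, and the 15 with the longer form comprise 6 higher, 6 lower, 2 not called and 1 not tested. By window, CCAATCA was in 35 of 122 of higher members (28.7%) and in 9 of 12 of lower members (75%). The longer form was in 6 of 122 (4.92%) and 6 of 12 (50%). The lower windows include those of the near-identical chromosome 2 copies, so they are not independent. The CCAATCA furthest downstream in each window lay a median of 66.5 bases before the start (quartiles 52 to 80.25). CCAAT alone was found in 57.9% of member windows and 37.4% of all windows. The AP-1 sequence TGANTCA was found in 4.68% of member windows and 7.81% of all windows, the CRE sequence TGACGTCA in 1.17% and 1.79%, and the EGR sequence GCGTGGGCG in 0 of the member windows and 0.612% of all windows. The E-box CACGTG was in 8.77% of member windows and 7.15% of all windows, and the NRF1 sequence, GCGCA and GCGC with 1 base between them, in 8.77% and 4.6%. A match describes these letters in this window alone.

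Partners of KRAB proteins were divided. Of 18 genes of the co-repressor core, 10 were higher, 7 lower and 1 (Cbx1) not called, against 34.9% higher and 34.3% lower over all genes. The median log2 change was 0.21, and 0.04 with the length trend removed, when 7 were higher and 7 lower. Atf7ip, which stabilises SETDB1, had 85.8, 90.3 and 80.5 CPM in depleted and 44.7, 46.4 and 48.1 CPM in competent samples, a 1.84-fold difference with no overlap. Smarcad1, a remodeller that binds TRIM28, was 1.65-fold higher. Hdac2, a deacetylase of the NuRD complex, was 1.49-fold lower, and Sumo2, a modifier of TRIM28, 1.59-fold lower (log2 change -0.67, and -0.30 after removal of the length trend). All 4 passed edgeR's test. Trim28 itself, named after its values were seen, had 255, 257 and 271 CPM in depleted and 234, 229 and 224 CPM in competent samples, without overlap (log2 change 0.19, SE 0.042, adjusted p = 0.00144). Setdb1, likewise named afterwards, had a log2 change of 0.56 (SE 0.056, adjusted p = 1.07e-06).

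**Figure D5:**
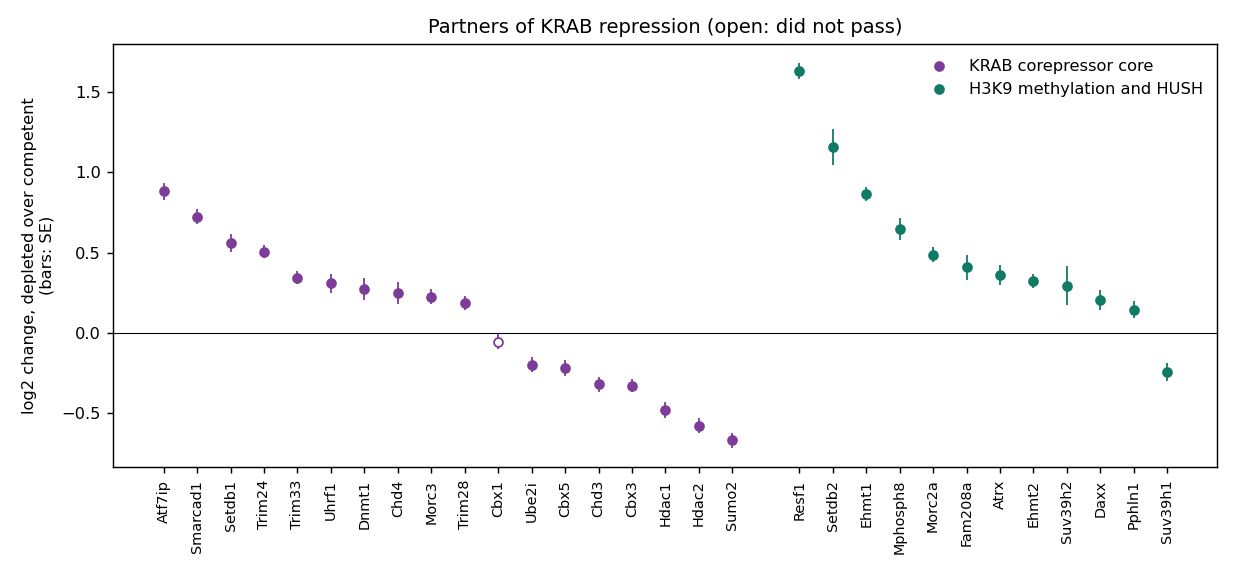
Log2 change, depleted over competent, with SE bars, of 18 genes of the KRAB co-repressor core and 12 genes of H3K9 methylation and the HUSH complex; open circles did not pass the edgeR test. Core genes run from Atf7ip at 0.88 to Sumo2 at -0.67, and in the other list Suv39h1 alone was lower, at -0.24.

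Genes of H3K9 methylation and of HUSH, a complex that silences retroelements, were higher in 11 of 12 cases, against 34.9% of all genes, with a median log2 change of 0.38. With DESeq2 or upper-quartile factors 9 were higher. With the length trend removed 7 were higher and 1 lower, with a median of 0.23. The largest rise was in Resf1, a SETDB1-linked silencer of endogenous retroviruses in mouse embryonic stem cells, with 188, 198 and 191 CPM in depleted and 57.8, 63.7 and 64.9 CPM in competent samples. Its groups are far apart (3.09-fold, log2 change 1.63, SE 0.050, adjusted p = 9.82e-12). Setdb2, a methyltransferase of the SETDB family, was 2.23-fold higher, Ehmt1, which encodes GLP, 1.82-fold, and Mphosph8, the chromodomain subunit of HUSH, 1.56-fold. All 3 passed the test, and 10.7% of the Mphosph8 exon length is also covered by an antisense gene.

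Zfp genes with lower numbers were also mostly higher in depleted cells. Of 194 protein-coding Zfp genes numbered below 600, 178 were tested, and 131 (73.6%) were higher, 10 (5.62%) lower and 37 not called, with a median log2 change of 0.58, and 0.45 with the length trend removed. Just below 600 the log2 changes were 0.55 for Zfp595, 0.63 for Zfp597, 0.50 for Zfp598 and 0.81 for Zfp599. Just above it they were 0.40 for Zfp605, 0.58 for Zfp606, 1.56 for Zfp608 and 0.35 for Zfp609.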

How the data were processed

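Messenger RNA of 6 samples was measured, and the authors deposited raw counts per gene, whole numbers without normalization, in a single table. The submitters' processing notes name GRCm38, STAR 2.7.1a, featureCounts, cutadapt 1.16, DESeq2 1.34.0, FastQC 0.11.9 and MultiQC 1.3; their order, the annotation, the strand setting and the handling of reads with several matches are not given in the sources used here. Libraries were made from poly-A RNA with a directional kit, per the labels' protocols. Columns named KO and WT were matched to the depleted and competent samples by group and replicate number, and 0 columns were left over. Of 32061 identifiers, 32009 were found in GENCODE M21 and 31976 had a symbol. Coordinates, biotypes and transcripts come from GENCODE M21, and promoter windows from RefSeq.

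Counts were tested with edgeR 4.0.16 (R 4.3.3): filterByExpr with the group (about 0.295 CPM in 3 samples), TMM scaling, and the quasi-likelihood F-test with the group as the only term, two-sided, at a threshold of 0.05 after Benjamini-Hochberg adjustment over 13839 genes. Every adjusted p comes from this test unless another setting is named. Log2 changes are depleted over competent, and CPM is scaled by TMM (factors 0.954 to 0.960 in depleted and 1.04 to 1.06 in competent samples). The common dispersion gave a biological coefficient of variation of 5.20%. The code was tested on simulated counts. Counts of 2 samples within a group differed by more than sampling noise (chi-square 5.56 to 9.92 per degree of freedom).

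Shared sequence is the share of 50-base words of a gene's longest transcript that occur in transcripts of other genes. KRAB boxes and C2H2 fingers were found by pattern in translated coding sequences. The length trend was removed with a loess curve per library (span 0.5, prior count 2) used as an offset. Members are named if among the 10 largest rises or falls with an adjusted p below 0.05 and no overlap, among the 5 of highest mean CPM, or on a list of 24 members with a described role, of which Zfp640 was not matched and Zfp819 was not tested. Of each other list, the 4 largest changes are named. Any other gene was named after its values were seen. The rows Zfp783 and Zfp939 are annotated as pseudogenes and were left out. The members, lists and tests were chosen with earlier results of these data known. Alternatives were DESeq2 1.42.0, limma-voom 3.58.1, RLE or upper-quartile scaling, other filters, the replicate block, length classes and leaving out each sample.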

Additional observations from a re-analysis of the deposited data

How the results depend on the processing

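Against 116 in the reported fit, the number of members called higher was 108 to 118 under each alternative of scaling, test, filter or design (which differ in the members they test), 112 to 115 without any one sample, and 109 at an adjusted p below 0.01; members called lower numbered 11 to 14. With a fold over 1.5 added, 73 were higher and 6 lower. Leaving out members with shared or overlapped sequence, an alternative chosen after the data were seen, left 96 tested, 85 of them higher and 3 lower, with the median unchanged at 0.61. The members' median log2 change was 0.56 with upper-quartile factors, 0.59 without a filter, 0.57 with the length trend removed and 0.60 to 0.64 without any one sample. Upper-quartile factors moved the median of all genes to -0.056. The median difference from the length class was 0.58 with limma-voom, 0.56 without a filter, 0.65 by union exon length and 0.57 to 0.60 without any one sample. The co-repressor core median was 0.16 with upper-quartile factors, 0.040 with the length trend removed and 0.17 to 0.21 without any one sample. For H3K9 and HUSH genes, removing the length trend left 7 higher with a median of 0.23, the median was 0.33 with upper-quartile factors, and leaving out any one sample gave 0.33 to 0.45. Against 11 higher in the reported fit, 9 were higher with DESeq2 or upper-quartile factors and 9 to 10 without any one sample. The median of Zfp genes below 600 was 0.53 with upper-quartile factors, 0.53 without a filter, 0.59 with a minimum of 1 CPM in 3 samples, 0.45 with the length trend removed and 0.56 to 0.59 without any one sample. The sign turned for Zfp652 with upper-quartile factors (-0.0034) and with the length trend removed (-0.26), for Zfp697 with the length trend removed (-0.041), and for Zfp934 with upper-quartile factors (-0.044), without a filter (-0.00036) and among fits without one sample (-0.055 to 0.075). The cause was not tested. Replicate numbers are shared by the groups, but same-numbered samples did not deviate together (correlations -0.03, 0.02 and -0.01). This does not show whether they share an origin, which is not given in the sources used here. With the replicate number as a block, 116 members were higher and 12 lower. Depth limits members under about 1 CPM, such as Zfp773.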
